A study of Mus musculus and Rattus norvegicus with 12 samples.

Results

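The rat line CX1 was compared with the rat lines MAX2, MAX3 and MAX8. All are XENP lines, which are blastocyst-derived lines of extraembryonic endoderm type, and they make up 4 of the 12 lines in the series. CX1 was chosen because its labelled passages, 38 and 40, lie far above those of the MAX lines. It came from the WKY strain and is labelled male. MAX2 (F344, female) is labelled passages 16 and 17, MAX3 (F344, male) passages 10 and 11, and MAX8 (WKY, female) passages 11 and 12. All the rat lines were kept in the same maintenance condition, and each is a separately derived line that gave 1 library. No genetic modification is given in the labels, and clonality is not stated. CX1 therefore shares its strain with MAX8 and its sex with MAX3, while passage number and the identity of the line cannot be told apart.

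Primitive endoderm is the blastocyst layer that forms the yolk sac endoderm. Its parietal branch is a migratory cell that secretes a thick basement membrane of laminin and type IV collagen, and its visceral branch is an absorptive epithelium that takes up nutrients. Early primitive endoderm still carries Pou5f1 (Oct4), a factor best known for maintaining pluripotency, beside the endoderm factors Gata4, Gata6 and Sox17.

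Levels are in CPM, the gene's count scaled to a common total of gene counts, so that 1 count equals 0.805 CPM in CX1 and 0.893 to 0.955 CPM in the MAX lines. Gene counts totalled 1242937 in CX1 and 1047535 to 1120074 in the MAX lines, and 10033 to 10311 genes had at least 1 count. Multimapping reads were 65.5% of all reads in CX1 and 67.9% to 70.1% in the MAX lines, reads outside annotated genes 15.0% against 11.0% to 13.0%, and reads shared by overlapping genes 1.76% against 2.45% to 3.04%. Their part in the differences below was not tested. The Y-linked gene Eif2s3y had 414 counts in CX1 and 255 in MAX3 but 0 in MAX2 and MAX8, which matches the labelled sex of each line. Ddx3y, also Y-linked, had 2, 0, 1 and 1 counts in CX1, MAX2, MAX3 and MAX8, and Sry had 0 in every rat line. The counts of Ddx3y and Sry are too low to tell the sexes apart. All 7 defining endoderm markers were detected, with a summed level of 3178 CPM in CX1 and 2639 to 3050 CPM in the MAX lines. The fibroblast markers (7 of 7) and the pluripotency markers Nanog, Sox2 and Esrrb had 0 counts in every rat line. Summed trophoblast markers reached 5.63 CPM in CX1 and 1.79 to 7.39 CPM in the MAX lines. Endothelial and blood markers summed to 52.3 CPM in CX1 and 46.8 to 253 CPM in the MAX lines, with Kdr and Ptprc at 0 throughout.

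CX1 lay farther from each MAX line than the MAX lines lay from each other. Over 7699 genes with a mean of at least 10 counts per library, 944 genes (12.3%) were at least 2-fold apart between CX1 and MAX2, with an exact 95% counting interval of the ratio clear of 1. The number was 1156 (15.0%) for CX1 and MAX3 and 1188 (15.4%) for CX1 and MAX8. Among the MAX lines it was 215 (2.79%) for MAX2 and MAX3, the F344 pair, 448 (5.82%) for MAX2 and MAX8 and 494 (6.42%) for MAX3 and MAX8. MAX2 and MAX8 share the female sex, and MAX3 and MAX8 share neither strain nor sex. Spearman's rho across genes was 0.882 to 0.902 for pairs with CX1 and 0.939 to 0.963 for pairs of MAX lines. CX1 was the highest of the 4 lines in 36.5% of genes and the lowest in 31.8%, a total of 68.3%, against 36.6% to 48.3% for each MAX line as highest or lowest.

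**Figure D1:**
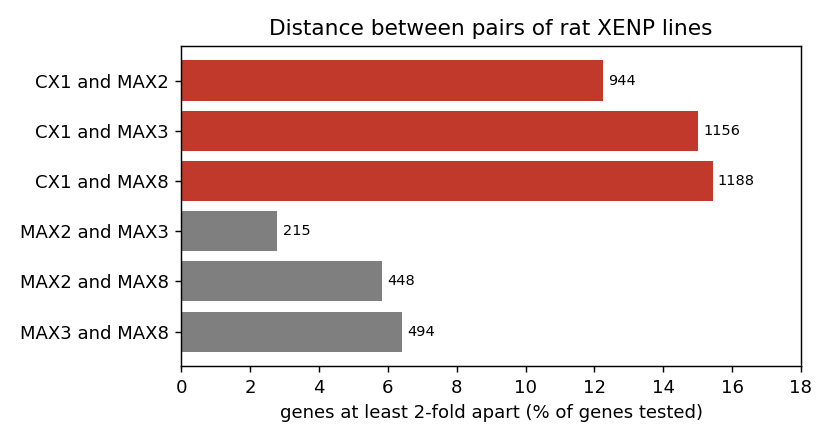
Horizontal bars give the percentage of 7699 tested genes that were at least 2-fold apart, with a 95% counting interval clear of 1, in each pair of rat lines, with the number of genes at the bar's end. The red bars are the pairs with CX1 (944 to 1188 genes) and the grey bars the pairs of MAX lines (215 to 494 genes).

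A gene was then counted as above the MAX range where CX1 was at least 2-fold higher than the highest MAX line, and as below it where CX1 was at least 2-fold lower than the lowest MAX line, in both cases with the exact 95% counting interval of that ratio clear of 1. The fold given for a gene is to this nearest MAX line. Since CX1 is 1 library, no group p-value was computed. The intervals cover counting error only and leave out variation between cultures, libraries and lines. Copies made by PCR are counted like separate molecules, which the intervals do not allow for. The intervals were not adjusted for the number of genes. Of 7699 genes, 144 (1.87%) were above and 343 (4.46%) below the range. Genes above were at a median of 2.55-fold and genes below at 2.90-fold from the range. At 4-fold or more, 25 genes were above and 107 below. Of the 144 genes above, 46 had a mean under 10 counts in the MAX lines and passed the count minimum only through CX1. MAX2 was the nearest line for 76 of the 144 genes, and 238 genes were above the range without MAX2.

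**Figure D2:**
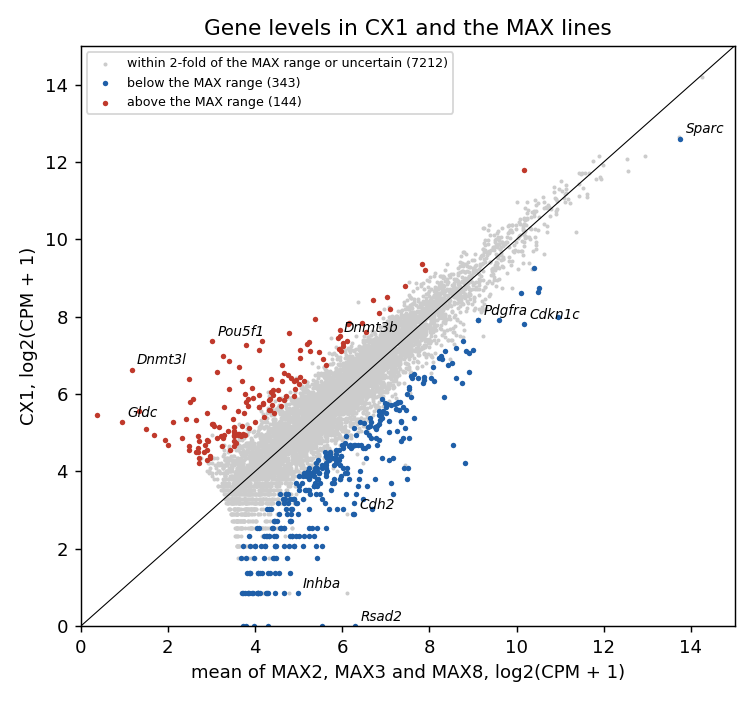
Each point is 1 of 7699 genes, with the mean level of MAX2, MAX3 and MAX8 on the horizontal axis and the level in CX1 on the vertical axis, both as log2(CPM + 1), and the line of equal levels. Red points (144) are above and blue points (343) below the MAX range.

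Pou5f1 and Dnmt3l were among the genes farthest above the range, and Dnmt3b was above it by less. Pou5f1, which encodes Oct4, was at 163 CPM in CX1 (203 counts), 8.32 in MAX2, 6.68 in MAX3 and 6.25 in MAX8. The MAX lines lay close together, and CX1 was 19.6-fold above the highest of them (counting interval 10.1 to 43.6). Dnmt3l, the catalytically inactive partner of the de novo DNA methyltransferases, was at 98.2 CPM in CX1 (122 counts) with 2 counts in MAX2, 2 in MAX3 and 0 in MAX8. That is 51.4-fold above MAX3 (13.9 to 429). Dnmt3b, a de novo methyltransferase, was at 175 CPM in CX1 against 64.7, 64.0 and 49.1 CPM in MAX2, MAX3 and MAX8, or 2.70-fold above the range (2.05 to 3.59). Of 11 measured genes of the DNA methylation list, 10 passed the count minimum, 2 were above and 0 below the range (1.87% and 4.46% of all genes tested), and the median log2 ratio of CX1 to the mean of the MAX lines (pseudocount 1 CPM) was 0.29. Dnmt3l passed the count minimum only through CX1, so it could be called in 1 direction only. The same median over all genes tested was 0.015. Dnmt1, the maintenance enzyme, was at 88.5 CPM in CX1, inside the MAX range of 67.5 to 90.7 CPM, and Dnmt3a at 41.0 CPM against 8.93 to 23.1 CPM.

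Most other pluripotency genes were undetected or did not reach 2-fold outside the range. Of 20 measured pluripotency genes 8 passed the count minimum, 2 were above and 0 below the range (median log2 ratio 0.66, against 1.87% and 4.46% called among all genes), and 8 had 0 counts in every rat line, among them Nanog, Sox2, Esrrb and Fgf4. Pou5f1 passed the count minimum only through CX1. The other gene above was Trim71, an RNA-binding protein of early embryos, at 29.0 CPM in CX1 and 7.14 to 14.3 CPM in the MAX lines. It was 2.02-fold above the range (1.08 to 3.98) and did not reach 2-fold with TMM or DESeq2 scaling. Lin28a, an RNA-binding protein that blocks let-7 maturation, was at 330 CPM against 207, 156 and 146 CPM, under 2-fold from MAX2. Klf4 (63.6 CPM against 41.6 to 58.0) and Fut4 (191 CPM against 190 to 215) lay near or inside the MAX range.

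Gldc, Tdh and Apobec3b were also above the range. Gldc, the glycine decarboxylase of the glycine cleavage system, was at 37.8 CPM in CX1 (47 counts) with 2, 1 and 0 counts in MAX2, MAX3 and MAX8, or 20.5-fold above MAX2 (5.36 to 174). Tdh, the threonine dehydrogenase that feeds this system, was at 39.4 CPM against 8.32, 6.68 and 0.893 CPM, or 4.74-fold above the range (2.30 to 11.0). Apobec3b, a cytidine deaminase, had 53 counts in CX1 and 0, 0 and 1 in the MAX lines, a ratio of 47.8 to MAX8 (8.21 to 1922). Gldc was 39.6-fold above the range without MAX2, and Apobec3b at least 15.4-fold without MAX8, where both other lines had 0 counts. All 3 genes had at most 1 count in MAX8. They also had a mean under 10 counts in the MAX lines and passed the count minimum only through CX1. They could therefore be called in 1 direction only.

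**Figure D3:**
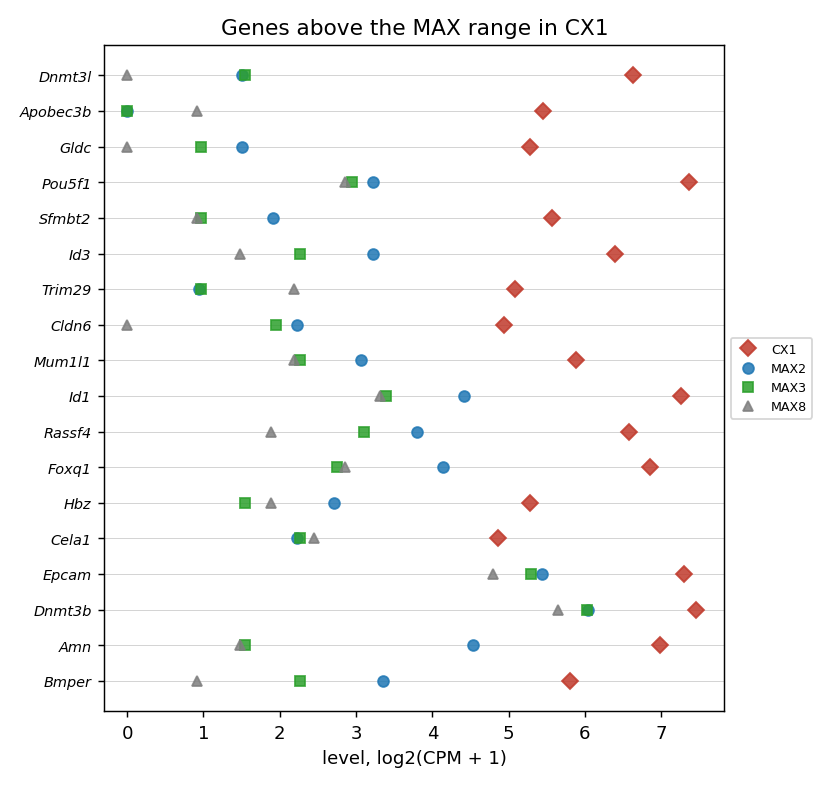
Levels in each rat line, as log2(CPM + 1), of the 14 named genes farthest above the MAX range and of Epcam, Dnmt3b, Amn and Bmper. The red diamonds of CX1 stand to the right of all MAX symbols in every row, as the rule for being above requires. MAX2 is the nearest line in most rows.

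Genes of BMP signalling differed in both directions. The Id genes, which encode inhibitors of basic helix-loop-helix factors and are known BMP targets, split. Id1 was at 153 CPM in CX1 and 20.3, 9.55 and 8.93 CPM in MAX2, MAX3 and MAX8 (7.52-fold above the range, 4.82 to 12.3), and Id3 at 82.9 CPM against 8.32, 3.82 and 1.79 CPM (9.96-fold, 5.05 to 22.4). Id4 was lowest in CX1, at 112 CPM against 222 to 348 CPM, and just missed 2-fold. Bmper, a secreted BMP-binding protein, was at 54.7 CPM against 9.24, 3.82 and 0.893 CPM (5.92-fold, 3.03 to 12.9). The BMP antagonist Nog was below the range, at 26.6 CPM against 130, 116 and 237 CPM (4.39-fold, 2.97 to 6.66). Inhba, the activin A subunit, had 1 count in CX1 against 36.0, 44.9 and 10.7 CPM, a ratio of 13.3 to MAX8 (1.97 to 569). Of 27 measured genes of the Nodal, TGF-beta and BMP list 10 passed the count minimum, with 3 above and 3 below (median log2 ratio -0.76), against 1.87% and 4.46% of all genes. Id3 and Bmper passed the minimum only through CX1. Without MAX2, Id1 was 16.0-fold, Id3 21.7-fold and Bmper 14.3-fold above the range, and without MAX8 the ratio of Inhba was 44.8. Tgfbr2, the type II TGF-beta receptor and not in that list, was at 9.65 CPM against 75.8, 65.9 and 96.4 CPM (6.82-fold below, 3.67 to 13.8).

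The core endoderm factors did not reach 2-fold outside the MAX range. Gata4 was at 1152 CPM against 684 to 1083 CPM and Sox17 at 1069 CPM against 659 to 1206 CPM. Gata6 was lowest in CX1, at 167 CPM against 250 to 296 CPM, but only 1.49-fold from MAX3. Of 15 measured regulators 13 passed the count minimum, 3 were above and 2 below the range, against 1.87% and 4.46% of all genes tested. Foxq1, a forkhead factor, was at 114 CPM against 16.6, 5.73 and 6.25 CPM (6.87-fold above, 4.19 to 11.9, and 18.3-fold without MAX2). Dab2, an endocytic adaptor, was at 447 CPM against 220, 208 and 91.1 CPM, 2.03-fold above, and did not reach 2-fold with TMM or DESeq2 scaling. The 2 genes below were Pdgfra, the PDGF receptor of primitive endoderm, at 240 CPM against 554, 515 and 604 CPM (2.15-fold, 1.86 to 2.48), and Sparc, a matrix glycoprotein. The list's median log2 ratio of 0.18 changed sign to -0.033 without MAX8 and to -0.27 with a mean of at least 50 counts.

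Uptake genes of visceral endoderm were at their highest in CX1, and most secreted carriers other than Apoe were not detected or nearly so. Amn (amnionless), the membrane partner of the uptake receptor cubilin, was at 126 CPM against 22.2 in MAX2 and 1.91 and 1.79 in MAX3 and MAX8 (5.66-fold above, 3.67 to 9.10). Without MAX2 its ratio to the nearest line, which had 2 counts, was 65.7. Cubn itself was at 294 CPM against 251, 105 and 14.3 CPM, Lrp2 (megalin) at 84.5 CPM against 36.1, 51.6 and 1.79 CPM, and the nuclear receptor Hnf4a at 29.8 CPM against 15.7, 4.77 and 0.893 CPM. These 3 genes spread widely among the MAX lines, with MAX8 lowest, and CX1 was under 2-fold from the highest. Of 24 measured visceral endoderm genes 8 passed the count minimum, 1 was above and 0 below the range (1.87% and 4.46% of all genes), and the median log2 ratio was 1.33. The 1 above, Amn, passed the count minimum only through CX1, and so did Hnf4a, which was not called. CX1 was highest in 5 of the 8, against 36.5% of all genes tested. Amn and Hnf4a are among the 5 and also enter the median, so the count filter itself favours both values. Apoe, the lipid carrier apolipoprotein E, was at 3305 CPM in CX1, between 3737 in MAX2 and 2937 and 1922 in MAX3 and MAX8. Afp and Rbp4 had 0 counts in every line and Ttr had 3 counts in MAX3 only. The endocytosis and lysosome list as a whole was near the median of all genes (median log2 ratio -0.017). Of its 28 tested genes 2 were above and 1 below, against 1.87% and 4.46% of all genes. The gene below was Gaa, the lysosomal acid alpha-glucosidase, at 28.2 CPM against 102 to 116 CPM.

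Epithelial adhesion genes were higher and the mesenchymal cadherin lower in CX1. Epcam, an epithelial adhesion molecule, was at 157 CPM against 42.5, 38.2 and 26.8 CPM (3.69-fold above, 2.66 to 5.21). Cldn6, a tight junction claudin of embryonic epithelia, had 37 counts in CX1 and 4, 3 and 0 in MAX2, MAX3 and MAX8 (8.05-fold, 2.89 to 31.1). The membrane protease St14 (2.61-fold) and its inhibitor Spint1 (2.41-fold, and 6.81-fold without MAX2) were above the range together. Cdh2, N-cadherin, was at 6.44 CPM (8 counts) against 57.3, 71.6 and 101 CPM, 8.90-fold below the range (4.25 to 21.5). Zeb1, a repressor of epithelial genes, had 3 counts in CX1 and 21, 17 and 30 in the MAX lines, a ratio of 6.72 to MAX3 (1.94 to 35.8). Cdh1, E-cadherin, was highest in CX1 at 36.2 CPM against 23.1, 12.4 and 3.57 CPM without reaching 2-fold.

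Of 22 measured epithelial genes 16 passed the count minimum, with 4 above, 0 below and a median log2 ratio of 0.67, and CX1 was the highest line in 12 of the 16. Among all genes 1.87% were above and 4.46% below, and CX1 was highest in 36.5%. Cldn6 passed the count minimum only through CX1. The simple keratins did not follow: Krt8 was at 603 CPM in CX1, 654 in MAX8 and 1603 and 1665 in MAX2 and MAX3, and Krt18 at 384 CPM against 284 to 937 CPM. Of 14 mesenchymal genes 8 passed the minimum, with 0 above and the 2 genes named below. Vim, the mesenchymal filament vimentin, was at 179 CPM, inside the MAX range of 89.3 to 275 CPM. Cav1, the membrane coat protein caveolin 1, which is in neither list, was 13.3-fold below the range (7.24 CPM against 96.1 to 106 CPM, 6.73 to 29.8).

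Of the lists, that of antigen presentation and interferon genes had the most members below the range. Rsad2, the antiviral enzyme viperin, had 0 counts in CX1 and 113, 56 and 84 in MAX2, MAX3 and MAX8 (104, 53.5 and 75.0 CPM). Set against 3 counts in CX1 (2.41 CPM), it was at least 22.1-fold lower than in MAX3 (lower counting limit 17.4). Isg15, a ubiquitin-like modifier, was at 8.05 CPM against 94.3, 64.9 and 67.9 CPM (8.07-fold below, 4.13 to 17.6). Cmpk2, a nucleotide kinase induced by interferon, had 1 count in CX1 and 30, 18 and 20 in the MAX lines, a ratio of 21.4 to MAX3 (3.37 to 890). Oasl, of the 2-5A synthetase family, had 1 count against 27, 13 and 13, a ratio of 14.4 (2.17 to 613). Cmpk2 and Oasl are not members of the list and were named because they are among the 14 genes farthest below the range. Interferon-related genes outside the list were not counted as a set. All 3 MAX lines stood above CX1 for Rsad2, Isg15, Cmpk2 and Oasl, which the rule for being below requires.

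Most signalling and antigen presentation genes named here were lower by a smaller amount, with Ikbke and Tapbpl as exceptions. Stat2, the interferon signal transducer, was at 16.9 CPM against 59.2, 64.9 and 58.9 CPM (3.49-fold below), and the transcription factor Irf1 at 8.85 CPM against 34.2, 25.8 and 21.4 CPM (2.42-fold, 1.14 to 5.48). Ikbke, a kinase upstream of interferon genes, had 1 count against 19, 12 and 15, a ratio of 14.2 to MAX3 (2.11 to 609). The immunoproteasome subunit Psmb9 was 3.56-fold and the peptide-loading protein Tapbp 2.48-fold below. Tapbpl, a relative of Tapbp, had 1 count against 29, 14 and 18, a ratio of 16.6 to MAX3 (2.53 to 702). Ikbke and Tapbpl are outside the list and were also named for being among the 14 genes farthest below the range. B2m, the light chain of class I molecules, was lowest in CX1 at 78.8 CPM against 104 to 127 CPM, under 2-fold. Of 31 measured genes in the list 14 passed the count minimum, 6 were below and 1 above the range, against 4.46% and 1.87% of all genes tested, and the median log2 ratio was -1.20. CX1 was lowest in 12 of the 14, against 31.8% of all genes. The exception above the range was Ifitm1, a membrane restriction factor, at 88.5 CPM against 17.6, 27.7 and 33.0 CPM (2.68-fold, 1.83 to 4.00). Ifit1 had 0 counts in every line, and Mx1 had 3 counts in CX1 and 0 in the MAX lines.

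**Figure D4:**
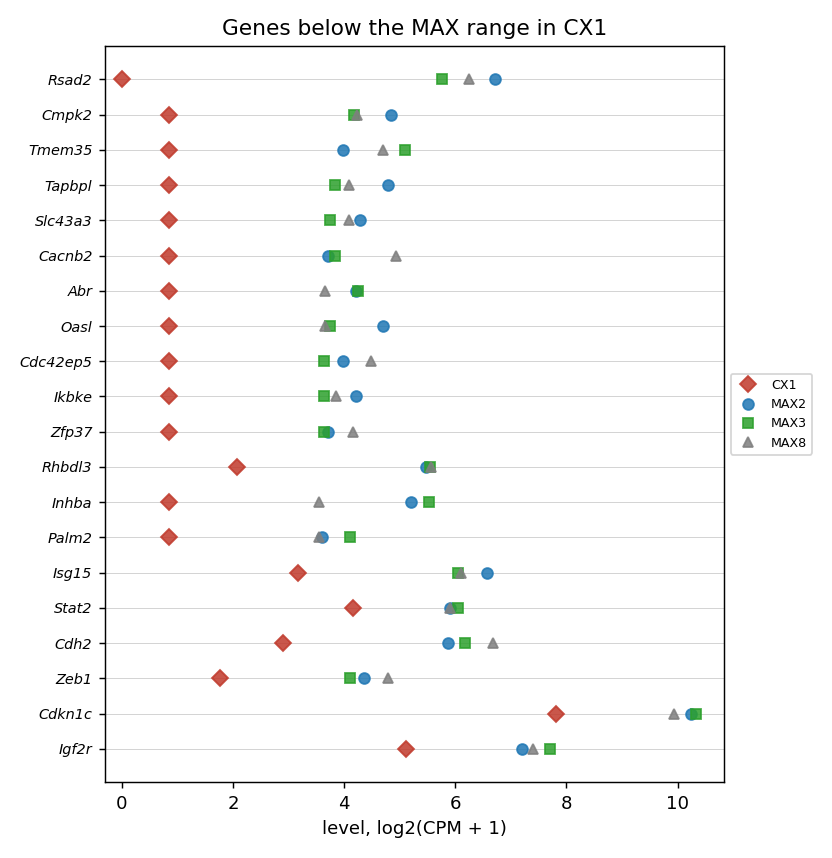
Levels in each rat line, as log2(CPM + 1), of the 14 named genes farthest below the MAX range and of Isg15, Stat2, Cdh2, Zeb1, Cdkn1c and Igf2r. The red diamonds of CX1 stand to the left of all MAX symbols in every row, as the rule for being below requires. They are at 0 for Rsad2 and at 1 count for most of the others.

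The other genes farthest below the range were of mixed function and had 1 to 4 counts in CX1. This ranking depends in part on the treatment of 0 counts. A 0 in CX1 was set to 3 counts for the fold and 1 count was kept, so genes at 0 can rank behind genes at 1. Usp13, with 0 counts in CX1 and 18, 27 and 15 in MAX2, MAX3 and MAX8, was given as 5.55-fold below and is not among the 14. Rhbdl3, a rhomboid-like membrane protein, had 4 counts in CX1 against 47, 48 and 52 in MAX2, MAX3 and MAX8, or 13.5-fold below (4.94 to 51.6), with the MAX lines nearly equal. Tmem35, Slc43a3 (a membrane transporter), Cacnb2 (a calcium channel subunit), Abr (a regulator of small GTPases), Cdc42ep5 (a CDC42 effector), Zfp37 (a zinc finger protein) and Palm2 (of the paralemmin family) each had 1 count in CX1 and 12 to 35 in each MAX line. Their ratios to the nearest MAX line were 13.3 to 18.4, with lower counting limits of 1.97 to 2.86. Abr was 4.80-fold below with unstranded counts and 21.8-fold without MAX8, and Tmem35 31.1-fold without MAX2. Abundant genes were below as well. Lipg, the endothelial lipase, was at 255 CPM against 2138, 2020 and 1736 CPM (6.81-fold, 6.04 to 7.69), which is the most precisely measured of the large differences.

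Among the other genes farthest above the range, Rassf4, a Ras-association domain protein, was at 94.9 CPM against 12.9, 7.64 and 2.68 CPM (7.34-fold, 4.20 to 13.8), and Mum1l1 at 57.9 CPM against 7.39, 3.82 and 3.57 CPM (7.83-fold). Trim29, a tripartite motif protein, had 41 counts in CX1 and 1, 1 and 4 in the MAX lines. Hbz, an embryonic zeta globin, had 47 counts in CX1 and 6, 2 and 3, and Cela1, an elastase-like protease, 35 counts against 4, 4 and 5. For these last 3 genes the fold to the nearest line was 6.31 to 9.24. Without MAX2, Rassf4 was 12.4-fold, Mum1l1 15.2-fold and Hbz 14.1-fold above, and without MAX8 Trim29 was 34.6-fold above. Rassf4, Mum1l1, Trim29, Hbz and Cela1 all passed the count minimum only through CX1.

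Imprinted genes, expressed from 1 parental allele, included 1 gene far above the range and 4 below it. Sfmbt2, a polycomb group gene imprinted in rodent extraembryonic tissue, was at 46.7 CPM in CX1 (58 counts) with 3, 1 and 1 counts in MAX2, MAX3 and MAX8, a ratio of 16.8 to MAX2 (5.48 to 84.0). Cdkn1c, which encodes the cyclin-dependent kinase inhibitor p57, was at 224 CPM against 1211, 1284 and 981 CPM (4.39-fold below, 3.84 to 5.02). Igf2r, the receptor that clears IGF2, was at 33.8 CPM against 146, 208 and 168 CPM (4.32-fold below, 3.06 to 6.23). Nnat (neuronatin) had 0 counts in CX1 and 20, 14 and 14 in the MAX lines. Set against 3 counts in CX1, it was at least 5.18-fold lower (lower counting limit 3.68). With unstranded counts CX1 was not at 0, and the fold of 8.89 used its own count, so it does not show a larger difference. The zinc finger factor Plagl1 had 4 counts against 18, 22 and 14 (3.88-fold). Of 31 measured imprinted genes 19 passed the count minimum, with 1 above and 4 below, against 1.87% and 4.46% of all genes (median log2 ratio -0.036, 0.092 without MAX2). Sfmbt2 passed the minimum only through CX1, and its ratio was 48.9 without MAX2. H19 was at 49.9 CPM in CX1, next to 43.4 in MAX2 and above 12.4 and 10.7 in MAX3 and MAX8. Igf2 had 15 counts in CX1 and 3, 0 and 0 in the MAX lines, under the count minimum.

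The CDK inhibitors Cdkn1c and Cdkn2a were below the range, and most replication and mitosis genes were highest in CX1 without reaching 2-fold. Cdkn2a, which encodes p16 and p19ARF, had 6 counts in CX1 and 23, 18 and 35 in the MAX lines (3.56-fold below, 1.35 to 11.0), and its neighbour Cdkn2b 2 counts against 13, 6 and 8. Cdkn1a, which encodes p21, was lowest in CX1 at 153 CPM against 280, 250 and 395 CPM, 1.64-fold from MAX3. Of 18 tested G1 cyclins and inhibitors 2 were below, Cdkn1c and Cdkn2a, and 0 above, against 4.46% and 1.87% of all genes tested. All 30 measured replication and mitosis genes passed the count minimum and 0 were above or below the range. Their median log2 ratio was 0.52, and CX1 was the highest line for 24 of the 30 and the lowest for 0, against 36.5% and 31.8% of all genes. The helicase subunit Mcm4 (813 CPM against 354 to 493) and the checkpoint kinase Bub1 (527 CPM against 248 to 290) were the members with the largest ratios. The proliferation marker Mki67 was at 125 CPM, inside the MAX range of 120 to 149 CPM. Terc, the telomerase RNA, was at 477 CPM against 104, 94.5 and 355 CPM.

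Ribosomal protein genes were mostly highest and endoplasmic reticulum genes mostly lowest in CX1, with none reaching 2-fold outside the range. For 31 tested cytosolic ribosomal protein genes CX1 was the highest line in 25 and the lowest in 1, against 36.5% and 31.8% of all genes (median log2 ratio 0.23), and their summed level was 48912 CPM in CX1 and 38995 to 43686 CPM in the MAX lines. Many have near-identical processed copies, so reads lost to multimapping make these counts uncertain. Of nucleolar genes outside the lists, Nop16 was at 243 CPM against 39.7, 42.0 and 39.3 CPM (5.78-fold above, 4.21 to 8.13) and Rrs1, a ribosome assembly factor, at 201 CPM against 52.5 to 69.6 CPM (2.89-fold). For 23 tested genes of endoplasmic reticulum chaperones and the unfolded protein response CX1 was the lowest line in 16 and the highest in 1, against 31.8% and 36.5% of all genes (median log2 ratio -0.40). Among them the stress sensor Atf6 was at 126 CPM against 221 to 292 CPM, the chaperone Hyou1 at 562 CPM against 830 to 955 CPM and Hspa5 at 2767 CPM, inside the MAX range.

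Of the abundant matrix genes of parietal endoderm, Sparc was below the range and the others named here did not reach 2-fold. Sparc was at 6232 CPM against 12896, 13165 and 15450 CPM in MAX2, MAX3 and MAX8 (2.07-fold below, 2.01 to 2.13). The type IV collagen chain Col4a1 was at 6419 CPM against 12431 to 15187 CPM, the laminin chains Lama1 at 4522 CPM against 6943 to 8362 CPM and Lamc1 at 1159 CPM against 2023 to 3168 CPM. CX1 was the lowest line for these 3 genes, under 2-fold from the nearest. Lama4, a laminin chain of vessels and muscle, was at 9.65 CPM against 191, 194 and 40.2 CPM, 4.16-fold below MAX8 (2.17 to 8.64), with MAX8 itself far from the other MAX lines, and 19.8-fold below without MAX8. The epithelial laminin chains Lamb3 (26.6 CPM against 2.68 to 9.24) and Lama5 (23.3 CPM against 0.955 to 9.24) were above the range, both having passed the count minimum only through CX1. Lamb3 was 5.56-fold above without MAX2. Of 12 tested basement membrane genes 2 were above and 2 below (median log2 ratio -0.40), against 1.87% and 4.46% of all genes tested. The list's summed level was 18575 CPM in CX1 and 34725 to 40216 CPM in the MAX lines. The parietal endoderm list had 1 above, Lamb3, and 1 below, Sparc, of 16 tested (median log2 ratio -0.43), against the same shares of all genes. Among 12 tested matrix proteases and inhibitors 3 were below and 0 above (median log2 ratio -0.50), against 4.46% and 1.87% of all genes. The 3 below were the urokinase receptor Plaur (3.54-fold), the metalloprotease inhibitor Timp1 (2.34-fold) and the protease Adamts1 (2.20-fold).

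Kit, Flt1, Pdgfra and Igf2r were below the range in CX1 and Fgfr1 above it. Kit, the stem cell factor receptor, was at 111 CPM against 414, 428 and 257 CPM (2.32-fold below, 1.88 to 2.86, and 3.73-fold without MAX8), and Flt1, a VEGF receptor, at 59.5 CPM against 374, 427 and 163 CPM (2.74-fold below, 6.29-fold without MAX8). Fgfr1, an FGF receptor, was at 80.5 CPM against 23.1, 4.77 and 8.04 CPM (3.48-fold above, 2.23 to 5.64, and 10.01-fold without MAX2). Outside the lists, and chosen after their values were seen, the neurotrophin receptor Ngfr (24.9 CPM against 1.85 to 5.36) and the receptor tyrosine kinase Ltk (44.3 CPM against 5.73 to 7.39) were also above the range. Ngfr and Ltk passed the count minimum only through CX1. Of 9 tested PDGF, KIT and IGF genes 3 were below, Pdgfra, Kit and Igf2r, and 0 above, against 4.46% and 1.87% of all genes. The 8 tested LIF and STAT3 genes had 0 calls and a median log2 ratio of -0.67. CX1 was the lowest line in 6 of them, against 31.8% of all genes. Lifr, the LIF receptor, was at 338 CPM against 569 to 621 CPM and its partner Il6st at 168 CPM against 290 to 443 CPM. Of 10 tested FGF and ERK genes Fgfr1 and Myc (2.42-fold) were above and Ier3 (2.68-fold) below, against 1.87% and 4.46% of all genes. Myc passed the count minimum only through CX1.

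**Figure D5:**
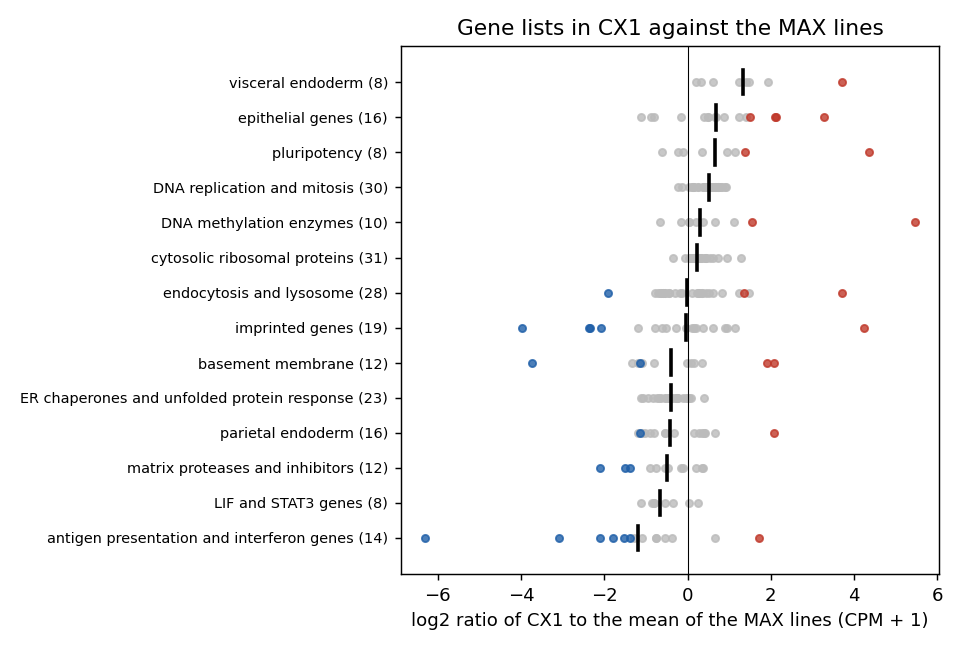
Each point is a gene that passed the count minimum, placed by its log2 ratio of CX1 to the mean of the MAX lines (CPM + 1), in 14 gene lists with the number of tested members in brackets. Red and blue points are above and below the MAX range, and black bars mark medians, from 1.33 for visceral endoderm to -1.20 for antigen presentation and interferon genes.

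The remaining lists held few calls. In all, 851 of 964 listed symbols were found, 486 passed the count minimum, and 29 were above and 36 below the range. Among all 7699 genes tested, 1.87% were above and 4.46% below. The lists were chosen with earlier results of these data known, so a larger share among their members is no separate result. Among glycosyltransferases Galnt3 (2.88-fold) and Fut9 (2.12-fold) were above and Gcnt2 (3.88-fold), St3gal4 (2.89-fold) and Mgat4a (2.64-fold) below, of 14 tested. Of 23 tested glycolysis and hypoxia genes Ndrg1 (4.02-fold) and the peptide hormone gene Adm, with 1 count in CX1 and 17, 8 and 15 in the MAX lines, were below. The ratio of Adm was 9.49, and 16.6 without MAX3. The amino acid response gene Aldh1l2, a mitochondrial folate enzyme, had 2 counts against 16, 21 and 31. Single members above the range were the germline gene Piwil2 (3.62-fold), the respiratory subunit Sdha (2.39-fold), the Hippo pathway factor Tead2 (2.65-fold), the glutamate transporter Slc1a3 (2.18-fold), the filament gene Nes (2.94-fold, past the count minimum only through CX1) and the desmosome-associated gene Perp (2.05-fold, and 4.35-fold without MAX8). Single members below it were the retinol dehydrogenase Rdh10 (2.97-fold), the kinase Lats2 (2.15-fold), the cadherin Cdh17 (3.45-fold, and 7.55-fold without MAX2) and the immediate early gene Atf3 (2.18-fold). In 12 lists with tested members, cholesterol synthesis (23 tested), polycomb (12) and cytoskeleton genes (11) among them, no member was above or below, and in the Hox and trophoblast lists none passed the count minimum.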

How the data were processed

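RNA-seq counts per gene of the 4 rat XENP lines were used, and the 8 mouse tables were not. The authors deposited whole-number counts in 3 columns (unstranded, sense and reverse strand). Total RNA had its ribosomal RNA removed before directional, paired-end library preparation, per the labels' protocols. The submitters' processing notes list STAR 2.5.1, Trimmomatic 0.33, CASAVA 1.8.2 and, unversioned, DESeq2, with the builds rn6 and mm10, and give none a role. Which gene annotation was counted is not stated there. Counts came from the fourth column, reverse strand (99.1% to 99.2% of stranded gene counts). Rows of read classes, 89.7% to 91.8% of reads, were left out.

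CPM used all gene counts. Genes needed a mean of at least 10 counts over the 4 libraries. Passing this minimum only through CX1 was recorded only for genes outside the range. List medians and the numbers of genes highest in CX1 can therefore include other such genes. Ratio intervals are exact conditional binomial (Clopper-Pearson) intervals at 95%, from SciPy 1.17.1. A count of 0 in the denominator was set to 3 counts. Against 10 counts in MAX3, 26 counts in CX1 were the fewest that counted as above. The range rule was tested on simulated data for CX1 against the MAX lines. It called 50 of 50 genes made 4-fold higher, 44 of 47 made 4-fold lower and 5 of 7492 left unchanged. Every gene had the same simulated level in all MAX lines, and unchanged genes had it in CX1 too, so the MAX lines differed by counting error only. The calls therefore give neither an error rate nor a recovery rate for real lines, which also differ from each other in other ways. Scaling factors came from edgeR 4.0.16 and DESeq2 1.42.0 under R 4.3.3. Other scalings, the unstranded column, other count, fold and interval limits, a pseudocount of 5 CPM and each MAX line left out were tried. No rat genome, annotation or sequence table was used here, so chromosome, coordinates and promoters were not analysed here.

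Named genes are the 14 farthest outside the range in each direction with at least 10 CPM on the higher side (symbols starting with LOC, RGD, Mir or Snor left out), up to 4 called members of each of 44 lists and fixed anchor genes. Tdh, Tgfbr2, Cav1, Lipg, Nop16, Rrs1 and list members without a call or beyond the fourth were named after their values were seen. The lines, lists and rules were chosen with earlier results of these data known. Some genes of the lists are not reported here.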

Additional observations from a re-analysis of the deposited data

How the results depend on the processing

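The direction of every named gene outside the range held under all scalings, with unstranded counts and without each MAX line, for 84 tested genes and 588 values, of which 46 moved by more than the spread between MAX lines. TMM scaling, DESeq2 size factors and a library size without genes over 1% of counts each ended the calls of Trim71 and Dab2. Genes above the range numbered 37 and genes below 150 with a mean of at least 50 counts, 431 and 564 with a fold of at least 1.5, and 25 and 107 with a fold of at least 4. Leaving out 1 MAX line gave 189 to 238 genes above and 414 to 444 below. The range of fewer lines is narrower. With counting intervals at an error level of 0.001, chosen after seeing the data, 97 were above and 210 below, and 21 named calls were lost, Cdkn2a, Inhba, Ikbke, Psmb9, Lama5, Lamb3 and Myc among them. The share of calls that lay above was 29.6%, and 19.8% with a mean of at least 50 counts, 43.3% with a fold of at least 1.5 and 18.9% with a fold of at least 4.

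Without a filter on low counts, 6.65%, 7.92% and 8.41% of genes were 2-fold apart between CX1 and MAX2, MAX3 and MAX8, against 1.64%, 3.29% and 3.64% for MAX2 and MAX3, MAX2 and MAX8, and MAX3 and MAX8. With a mean of at least 50 counts the values were 7.58%, 10.3%, 9.79%, 0.536%, 2.80% and 3.05%. Pairs with CX1 stayed above all pairs of MAX lines in each alternative run. No paired analysis was possible because CX1 is 1 line and shares no line number with the MAX lines. Medians by chromosome and promoter features were not run. Depth limits the calls, since most genes farthest below had 1 count in CX1.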

Other observations

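Several abundant genes outside the lists lay below the MAX range with narrow counting intervals, and they were chosen after their values were seen. Esyt1, an endoplasmic reticulum tether, was at 397 CPM in CX1 against 1071, 1151 and 2080 CPM in MAX2, MAX3 and MAX8 (2.70-fold below, 2.42 to 3.00). Msl3, a chromatin protein of the MSL complex, was at 429 CPM against 1895, 1137 and 1382 CPM (2.65-fold below, 2.39 to 2.94). Pla2r1, a phospholipase A2 receptor, was at 94.9 CPM against 481, 532 and 429 CPM (4.51-fold below, 3.68 to 5.57), and Dock8, a guanine nucleotide exchange factor, at 76.4 CPM against 440, 399 and 440 CPM (5.22-fold below, 4.17 to 6.59). Pga5, a pepsinogen, was at 24.9 CPM against 649, 372 and 99.1 CPM, with the MAX lines themselves far apart.

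Ube2l3, Psme3 and Cct8 were among the abundant genes above the range, and related genes were below it. Ube2l3, a ubiquitin-conjugating enzyme, was at 652 CPM against 202, 250 and 232 CPM (2.61-fold above, 2.27 to 3.01), the proteasome activator Psme3 at 361 CPM against 122, 122 and 145 CPM and the chaperonin subunit Cct8 at 595 CPM against 285, 226 and 208 CPM (2.09-fold). Another chaperonin subunit, Cct6a, was below the range, at 239 CPM against 639, 488 and 525 CPM (2.04-fold below), as was the proteasome activator subunit Psme2, at 57.1 CPM against 122, 116 and 119 CPM.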
